A study of Homo sapiens with 6 samples.

Results

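The retinoid genes described here are CRABP1, CRABP2, DHRS3, RARRES1, RARRES2 and TGM2, a set that spans the handling of vitamin A derivatives in the cell and genes first known for their response to retinoic acid. They were read by every probe set whose platform annotation gave exactly 1 of these symbols, which came to 8 probe sets for 5 genes, of 10943 probe sets with 1 symbol in all. CRABP1 had no such probe set and was not analysed here. The cells were U373, a line from a human glioblastoma, kept in medium with fetal calf serum, and their messenger RNA was read on 6 Affymetrix U95 Av2 arrays, 1 for each condition. One array held untransfected, untreated cells at day 1. The other 5 held cells transfected with syk in an ecdysone-inducible expression system: untreated at day 1, given ethanol at day 1, given ethanol and 10 µM PonA at day 1, untreated at day 2, and given ethanol and 10 µM PonA at day 2. PonA is ponasterone A, a steroid that switches on such inducible constructs, and ethanol is its solvent. SYK encodes a tyrosine kinase that passes on signals of immune receptors. PonA exposure is labelled as 6 to 48 hours without saying which array had which, and nothing tells whether the transfected cells were 1 clone. Each condition had a single array, PonA was given to transfected cells alone, and day 2 lacked an ethanol array here.

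Retinol from the blood is oxidised inside cells to retinaldehyde and then to retinoic acid, which binds the nuclear receptors RARA, RARB and RARG. These sit on DNA as pairs with an RXR receptor, often at 2 copies of a short hexamer in the same direction with 5 bases between them. DHRS3 is an enzyme that turns retinaldehyde back into retinol, and CRABP1 and CRABP2 are small proteins that bind retinoic acid in the cytoplasm, of which CRABP2 carries it to the receptors in the nucleus. TGM2 is tissue transglutaminase, an enzyme that cross-links proteins. RARRES1 is a membrane protein and RARRES2 encodes the secreted chemoattractant chemerin. DHRS3, CRABP2, TGM2, RARRES1, RARRES2 and RARB are all known to rise with retinoic acid in various cell types.

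RefSeq promoter windows on GRCh38.p14, each the 250 bases before a transcription start, are shown for DHRS3 and CRABP2, the retinoid genes with the largest PonA effects, and for the pathway genes RARB and ALDH1A3, which passed the test. A script searched them on both strands for the receptor hexamer AGGTCA and for its variants that read GGGTCA, or else AGTTCA, or else GGTTCA, and for direct repeats of any of these with 1, 2 or 5 bases between. Hexamers are in capitals, and the direct repeat is the pair of capital runs with 5 lower-case bases between.
DHRS3, chr1:12618211-12618460, minus strand: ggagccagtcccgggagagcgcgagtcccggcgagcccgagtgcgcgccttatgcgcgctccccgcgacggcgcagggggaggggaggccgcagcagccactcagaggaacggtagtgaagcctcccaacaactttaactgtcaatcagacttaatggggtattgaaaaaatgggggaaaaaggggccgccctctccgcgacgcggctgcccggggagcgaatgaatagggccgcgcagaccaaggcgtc
DHRS3, second start, chr1:12616790-12617039, minus strand: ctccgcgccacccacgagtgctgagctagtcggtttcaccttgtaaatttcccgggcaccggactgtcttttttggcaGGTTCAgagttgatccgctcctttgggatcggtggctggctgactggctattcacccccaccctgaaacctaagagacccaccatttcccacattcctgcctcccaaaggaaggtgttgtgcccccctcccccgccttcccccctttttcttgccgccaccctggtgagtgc
CRABP2, chr1:156705785-156706034, minus strand: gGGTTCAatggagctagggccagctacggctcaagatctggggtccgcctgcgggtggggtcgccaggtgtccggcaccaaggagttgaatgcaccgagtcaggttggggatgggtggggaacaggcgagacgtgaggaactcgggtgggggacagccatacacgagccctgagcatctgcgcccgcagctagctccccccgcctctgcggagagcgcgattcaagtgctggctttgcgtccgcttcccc
RARB, chr3:25428013-25428262, plus strand: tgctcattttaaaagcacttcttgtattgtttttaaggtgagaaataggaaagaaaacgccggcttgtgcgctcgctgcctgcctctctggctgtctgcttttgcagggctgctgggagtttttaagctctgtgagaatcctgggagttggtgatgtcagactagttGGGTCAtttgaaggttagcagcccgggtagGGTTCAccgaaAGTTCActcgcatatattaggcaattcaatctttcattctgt
ALDH1A3, chr15:100879581-100879830, plus strand: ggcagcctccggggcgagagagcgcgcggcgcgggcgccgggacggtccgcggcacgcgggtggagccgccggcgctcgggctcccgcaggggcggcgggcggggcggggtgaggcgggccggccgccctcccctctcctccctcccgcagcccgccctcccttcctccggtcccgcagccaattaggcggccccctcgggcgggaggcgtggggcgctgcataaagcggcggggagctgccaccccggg
The search took in 18 windows of 10 genes, several of them for RARB. In the RARB window printed here the direct repeat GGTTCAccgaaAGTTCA began 53 bases before the start, and the other RARB windows held no direct repeat. A repeat of the same kind stood in 1 CYP26A1 window, on the minus strand, as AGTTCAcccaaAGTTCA. Of 35116 promoter windows of this length, 0.074% held a direct repeat with a spacer of 5 and 33.8% held at least 1 hexamer. The ALDH1A3 window held 0 hexamers and 0 direct repeats. None of the 3 DHRS3 windows and neither the CRABP2, RARRES1 nor RARRES2 window held a direct repeat of the 3 kinds searched. These matches are letters in a window and were not tested as sites, and the arrays do not say from which start a transcript came.

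The values are MAS5 signal, the brightness of a probe set summarised by Affymetrix's algorithm, and the arrays had been scaled to a common level. The 40th percentile of each array, between 22.7 and 26.5 signal units, served as a floor under which no fold is given. Glioma markers such as VIM, SOX2, SOX9, CD44 and FABP7 lay above it on all 6 arrays, 6 of 11 glial genes in all, while AQP4, SLC1A2 and OLIG2 lay under it on all 6. The summed signal of the glial list lay between 10784 and 12572. SLC1A3, a glutamate transporter of astroglia, rose with PonA, from 22.8 to 38.8 in transfected cells without it to 193 and 225 with it (82.0 in untransfected cells; limma effect 2.88 ± 0.26 SE, adjusted p = 0.00410), and its part in the retinoid results was not tested. Of markers of other cells, the leukocyte genes PTPRC and CD14, the endothelial CDH5 and VWF, the epithelial EPCAM and KRT5, the neuronal SNAP25 and the oligodendrocyte MBP lay under the floor on all 6 arrays, while CD3E, SYN1 and MOG lay above it on all 6. The summed signal was 80.1 to 114 for 4 leukocyte genes, 642 to 1123 for 2 neuronal genes and 43.2 to 71.9 for 2 oligodendrocyte genes. GFAP, the defining astrocyte filament gene, stood at 1533 before transfection and at 103 to 229 on the arrays of transfected cells. SYK itself was read by 3 probe sets that differed. The brightest, 1630_s_at, gave 31.0 in untransfected cells, 56.3 to 73.1 at day 1 after transfection, and 22.0 untreated and 35.2 with PonA at day 2 (limma effect 0.10 ± 0.24 SE, adjusted p = 0.877). On 548_s_at only the PonA arrays exceeded the floor, at 39.1 and 72.5 against 14.4 to 22.2 without PonA and 1.74 in untransfected cells. It entered the fit through its PonA arrays alone, and its other signals were set to the floor. The limma effect of 1.04 ± 0.26 SE (adjusted p = 0.0803) is therefore a bound, and its p is not read as a test. The last, 36885_at, lay under the floor on all 6 and was not tested. The brightest SYK probe set did not pass, and which of the 3 reads the construct was not tested. Spike-in controls had a geometric mean of 157 on the untransfected array and 271 to 501 on the others. The 3' to 5' ratio of beta-actin was 1.21 and 1.20 on the day 2 arrays and 0.960 to 0.987 at day 1. In cultures measured in bulk, fewer cells that express a gene and less RNA per cell cannot be told apart.

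DHRS3 was the retinoid gene that fell with PonA past the threshold. Its probe set, 40782_at, gave 907 signal units in untransfected cells, and 843 untreated, 759.8 with ethanol and 406 with PonA in transfected cells at day 1. The day 2 arrays read 1118 untreated and 377 with PonA. Both PonA arrays thus lay below all 4 arrays without PonA, and the groups did not overlap. Against the 3 transfected arrays without PonA alone, 16.2% of the 7934 probe sets tested showed such a gap. PonA went with a 1.87-fold lower signal than ethanol and a 2.08-fold lower signal than no treatment at day 1, and with a 2.97-fold lower signal than no treatment at day 2. Falls of at least 2-fold took in 2.4%, 3.12% and 4.04% of probe sets in these 3 comparisons, and DHRS3 fell short of that size against ethanol and passed it against no treatment on both days. The effect over both days was tested with limma, in a fit over the 5 transfected arrays with terms for PonA and day and Benjamini-Hochberg adjustment over the 7934 probe sets that exceeded the floor on 2 or more of them. The log2 effect was -1.23 ± 0.20 (SE), or 2.35-fold lower with PonA, with an adjusted p of 0.0238. The fit had no term for ethanol, which both PonA arrays had and the untreated arrays lacked. Its PonA effects therefore do not fully separate PonA from its solvent, for this or any other gene. In the same fit 2.37% of all probe sets passed as lower, 2.7% as higher and 5.07% in either direction. With no repeated condition, a probe set's own spread comes from 2 differences, that of ethanol from no treatment and that of the PonA effects of the days. limma draws this spread towards that of all probe sets tested, with 4.48 prior degrees of freedom against 2 residual ones. The call was lost without either array of day 2: the effect was then -0.98 (limma adjusted p = 0.155 without the untreated array and 0.173 without the PonA array). It was also lost with the floor at the 20th percentile and with no filter on low signals, at the same effect of -1.23 (limma adjusted p = 0.106 and 0.0866). Among the 4 arrays without PonA, from 1118 down to 759.8, no DHRS3 neighbours in the order of levels differed by more than 0.31 on the log2 scale. That is the SD of a difference of 2 arrays in this fit. End to end these arrays ran from 10.13 (untreated, day 2) to 9.57 (ethanol, day 1) on that scale, further apart than the SD. The step from ethanol to PonA at day 1 was 0.90.

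**Figure D1:**
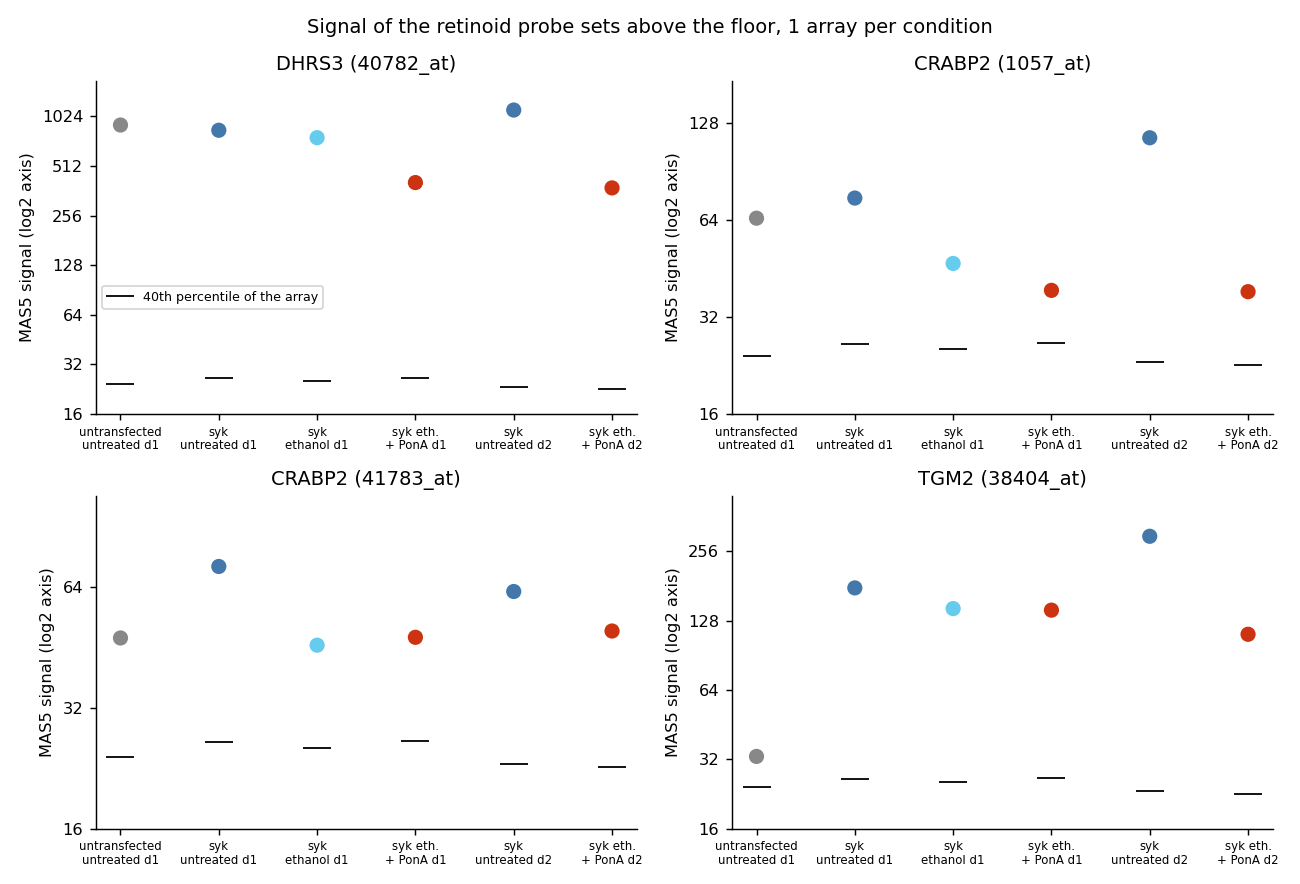
MAS5 signal (log2 axis) of the 4 retinoid probe sets above the floor in each of the 6 conditions, 1 point per array, with the 40th percentile of each array as a dash. DHRS3 sits at 406 and 377 on the PonA arrays (red) and at 759.8 or more on the others, and TGM2 sits at 32.9 in untransfected cells (grey) and at 112 or more in transfected cells.

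CRABP2, the carrier of retinoic acid to its receptors, was read by 2 probe sets that differed in how they moved. The first, 1057_at, gave 64.8 in untransfected cells, and 74.8 untreated, 46.9 with ethanol and 38.7 with PonA at day 1. A day later the untreated array read 115 and the PonA array 38.3. Its PonA arrays were the lowest of the 6, but the ethanol array lay closer to them than to the untreated arrays. Ethanol alone stood at -0.67 against no treatment on the log2 scale, and PonA at -0.28 against ethanol. At day 2 PonA stood at -1.59 against no treatment, where ethanol and PonA were not separated. The limma effect of -1.03 ± 0.30 (SE) missed the threshold (adjusted p = 0.121). Without the ethanol array it passed, at -1.27 (limma adjusted p = 0.00845). That fit passed 725 of 7765 probe sets tested, against 402 of 7934 in the fit with all 5 transfected arrays. Leaving out 1 array at a time gave effects of -1.59 to -0.61 on this probe set.

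The second CRABP2 probe set, 41783_at, gave 47.7 in untransfected cells, and 71.9 untreated, 45.8 with ethanol and 47.9 with PonA at day 1. Day 2 gave 62.3 for untreated cells and 49.7 with PonA. Here the groups overlapped, with the ethanol array lowest of all. Its limma effect was -0.29 ± 0.23 (SE, adjusted p = 0.576). On both CRABP2 probe sets the ethanol array lay below the untreated array of the same day, by 0.67 and 0.65 on the log2 scale. The spike-in mean of the ethanol array was 271, while the day 1 arrays of untreated and of PonA-treated cells had 474 and 501, and its part in the CRABP2 difference was not tested.

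TGM2 was the retinoid gene that differed most between transfected and untransfected cells. Its brighter probe set, 38404_at, gave 32.9 in untransfected cells, and 178 untreated, 144 with ethanol and 142 with PonA in transfected cells at day 1. Day 2 gave 298 for untreated cells and 112 with PonA. All 5 transfected arrays lay above the untransfected one. Untreated transfected cells were 5.39-fold higher than untransfected cells at day 1, a difference of 2 single arrays with no replicate check, in which 3.08% of 8045 probe sets were at least 2-fold higher. The untransfected array had the lowest spike-in mean of the 6 (157, against 474 on the untreated transfected array), and its part in this was not tested. GFAP was lower in transfected cells on the same arrays. Transfection and any other difference between these 2 cultures cannot be told apart.

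With PonA, TGM2 stood at -0.02 against ethanol and -0.32 against no treatment at day 1, on the log2 scale. At day 2 it was 2.66-fold lower than untreated. The additive limma effect was -0.70 ± 0.30 (SE, adjusted p = 0.270). It was -0.17 without either array of day 2 and -1.41 without the PonA array of day 1, so TGM2's value rested on day 2. A PonA-by-day term, fitted with limma on 1 residual degree of freedom, was -1.24 ± 0.42 for TGM2 (unadjusted p = 0.0210, adjusted p = 1.00). In limma that term passed for 0 of the 7934 tested (0%), while 330 had an unadjusted p under 0.05, and it also holds whatever ethanol did at day 2. For DHRS3 the term was -0.59 ± 0.40 (adjusted p = 1.00) and for the CRABP2 probe sets -0.97 ± 0.52 and -0.07 ± 0.51 (both adjusted p = 1.00).

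The dimmer TGM2 probe set, 231_at, annotated with the same source accession as the first, lay under the floor on all 6 arrays at 8.01 to 20.5, so no fold is given. Its lowest values, 8.01 and 9.98, were those of the PonA arrays, and untransfected cells gave 11.1. RARRES1, the membrane protein gene, was read by 2 probe sets that lay under the floor on every array, at 1.31 to 4.90 and 0.539 to 1.77. RARRES2, the chemerin gene, gave 9.77 to 13.2 and also lay under the floor on all 6. Neither RARRES gene was therefore tested, and its response to PonA was not measurable at these signals.

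Over the retinoid genes, 4 of the 8 probe sets were above the floor on all 6 arrays and were tested, and the other 4 were under it on all 6. Of the 4 tested, 1 fell and none rose, and all 4 effects were negative, with a median of -0.87 on the log2 scale, against 0.01 over all 7934 probe sets tested, of which 49.2% had a negative effect and 2.37% passed as lower. On 3 of the 4, the exception being the second CRABP2 probe set, both PonA arrays lay below all 3 transfected arrays without PonA, which was so for 16.2% of all probe sets tested. These 4 probe sets stand for 3 genes, and 2 of them are annotated to CRABP2. The genes were chosen with earlier results of these data known, and all 4 probe sets share the same arrays. Their common sign and median are therefore a description and not a test.

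**Figure D2:**
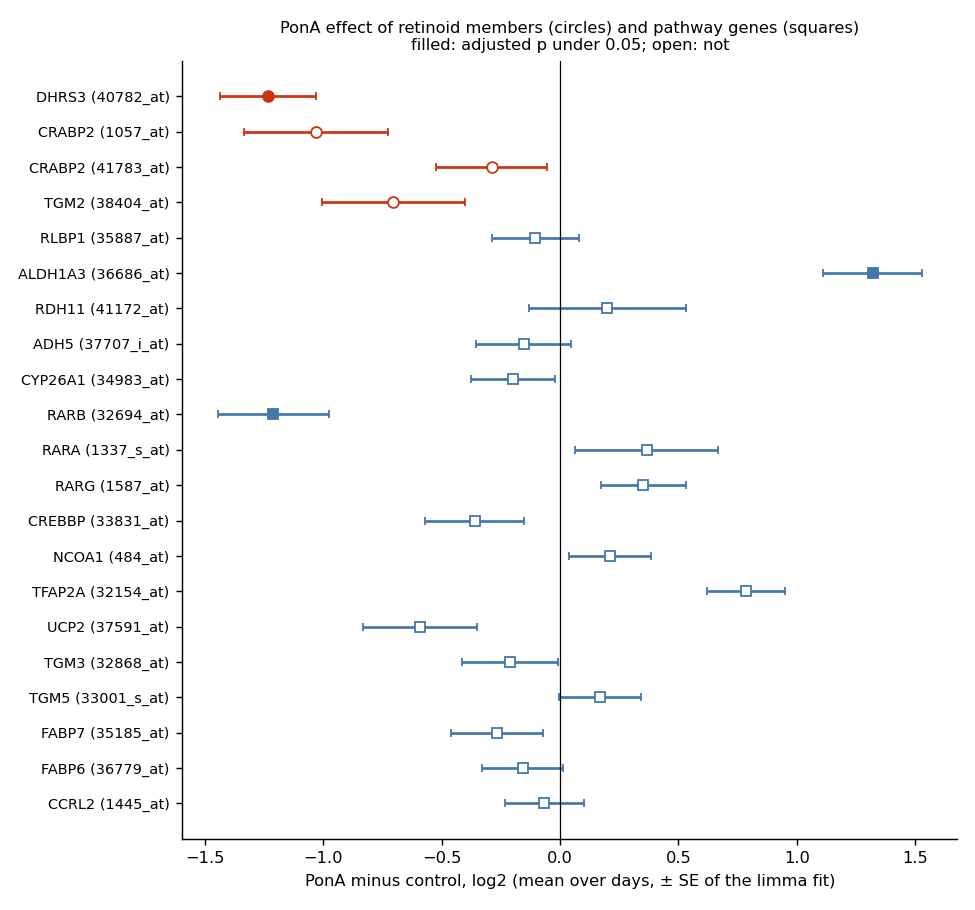
Log2 effect of PonA with its SE in the additive limma fit over 5 transfected arrays, for the 4 tested retinoid probe sets (circles) and genes of the wider pathway (squares), filled where the adjusted p is under 0.05. DHRS3 at -1.23, RARB at -1.21 and ALDH1A3 at 1.32 are the filled points. TGM3 and FABP6 had both PonA arrays under the floor.

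Without PonA the levels also differed with time in culture. From day 1 to day 2 in untreated transfected cells, DHRS3 was 1.33-fold, the first CRABP2 probe set 1.54-fold and TGM2 1.68-fold higher, while the second CRABP2 probe set stood at -0.21 on the log2 scale. None reached 2-fold, as 1.04% of probe sets did in the higher direction. With PonA the difference from day 1 to day 2 was -0.11 for DHRS3, -0.01 and 0.05 for CRABP2 and -0.35 for TGM2. The larger distance between PonA and untreated cells at day 2 thus came, for DHRS3 and the first CRABP2 probe set, mostly with a higher untreated array. For TGM2 both arrays moved, by 0.74 on the log2 scale for the untreated array and -0.35 for the PonA array. The day 2 arrays are those with the higher beta-actin ratio, and its part in this was not tested. Between untreated transfected and untransfected cells at day 1, DHRS3 stood at -0.11 and the CRABP2 probe sets at 0.21 and 0.59, all under 2-fold, next to 2.43 for TGM2.

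**Figure D3:**
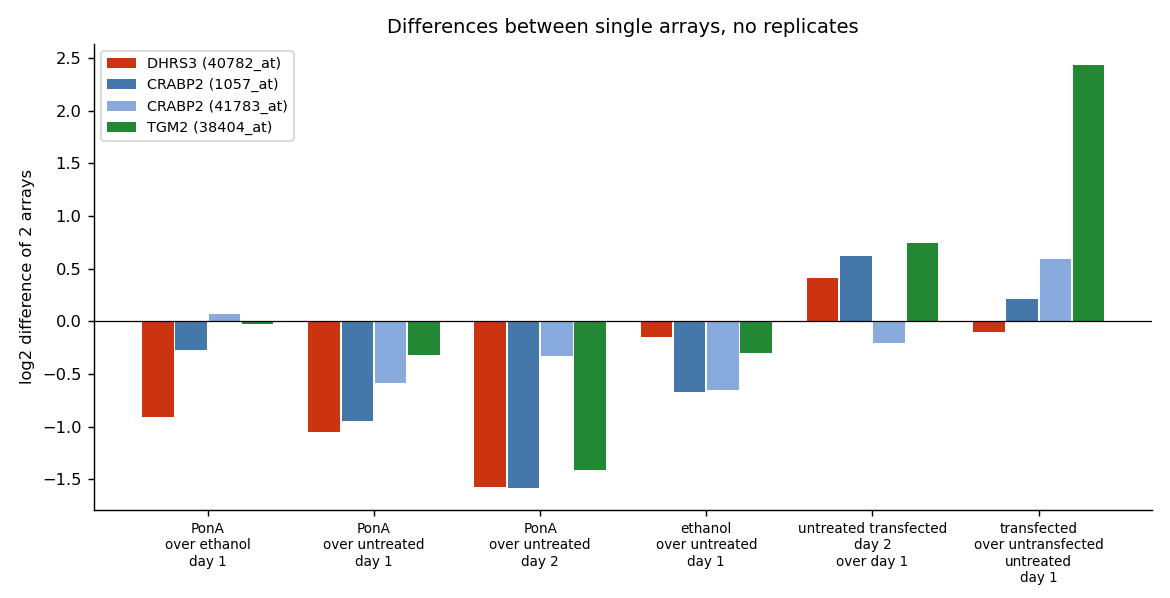
Log2 differences between pairs of single arrays for the 4 tested retinoid probe sets, bars from 0, no replicates. PonA against untreated cells at day 2 is at -1.57 for DHRS3, -1.59 and -0.33 for CRABP2 and -1.41 for TGM2, and transfection is at 2.43 for TGM2.

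The wider retinoid pathway was read from 84 listed genes, of which 61 had a probe set with 1 symbol and 30 were above the floor on at least 2 transfected arrays. Of these 30 genes 1 rose, 1 fell and 28 did not pass, and the median log2 effect was -0.06, next to 2.7% higher and 2.37% lower calls among all probe sets tested. The 2 calls are 1 in the synthesis of retinoic acid and 1 among its receptors, and neither passed with the floor at the 20th percentile or with no filter on low signals.

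RARB, a retinoic acid receptor whose own gene is a known target of the hormone and 1 of whose windows is printed above, fell with PonA. Its tested probe set, 32694_at, gave 139 in untransfected cells, and 141 untreated, 114 with ethanol and 68.6 with PonA at day 1. Day 2 gave 144 for untreated cells and 45.9 with PonA. Both PonA arrays lay below the other 4, which stood between 114 and 144. Against the 3 transfected arrays without PonA alone, that was so for 16.2% of all probe sets tested. The limma effect was -1.21 ± 0.23 (SE, adjusted p = 0.0394), and it was -0.88 and no longer passed without either array of day 2 (adjusted p = 0.226 without the untreated array and 0.245 without the PonA array). The other 2 RARB probe sets were under the floor on all 6 arrays. RARB and DHRS3 share the same controls, so their nearness of effect, -1.21 and -1.23, is a description only. CYP26A1, the enzyme that breaks down retinoic acid, holds the same kind of repeat in 1 of its windows. It had an effect of -0.20 ± 0.18 (limma adjusted p = 0.616) at signals of 19.6 to 33.3, near the floor.

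ALDH1A3, an enzyme that oxidises retinaldehyde to retinoic acid, rose. Its signal was 103 in untransfected cells, and 57.7 untreated, 55.7 with ethanol and 116 with PonA at day 1. Day 2 gave 77.4 for untreated cells and 252 with PonA. The 2 PonA arrays were the highest of the 6, with the untransfected array next. How many probe sets have this order was not counted. The limma effect was 1.32 ± 0.21 (SE, adjusted p = 0.0221), and without either array of day 2 it was 1.03 and did not pass (adjusted p = 0.127 without the untreated array and 0.142 without the PonA array). RDH11, a retinaldehyde reductase, gave 211 with PonA at day 2 against 122 untreated but 73.0 at day 1, where untreated cells gave 115 and ethanol 64.8. It thus stood at -0.65 against no treatment and 0.17 against ethanol on the log2 scale, with ethanol alone at -0.82, and its effect was 0.20 ± 0.33 (limma adjusted p = 0.808). ADH5 had an effect of -0.15 ± 0.20 (limma adjusted p = 0.744). Among the enzymes of retinol and retinal, 1 of 4 tested genes rose and none fell, where 2.7% of all probe sets rose. Of the other retinaldehyde dehydrogenases of the family, ALDH1A1 lay under the floor on all 6 arrays. ALDH1A2 lay above it on all 6, at 37.7 to 57.3, with an effect of -0.10 ± 0.24 (limma adjusted p = 0.867).

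**Figure D4:**
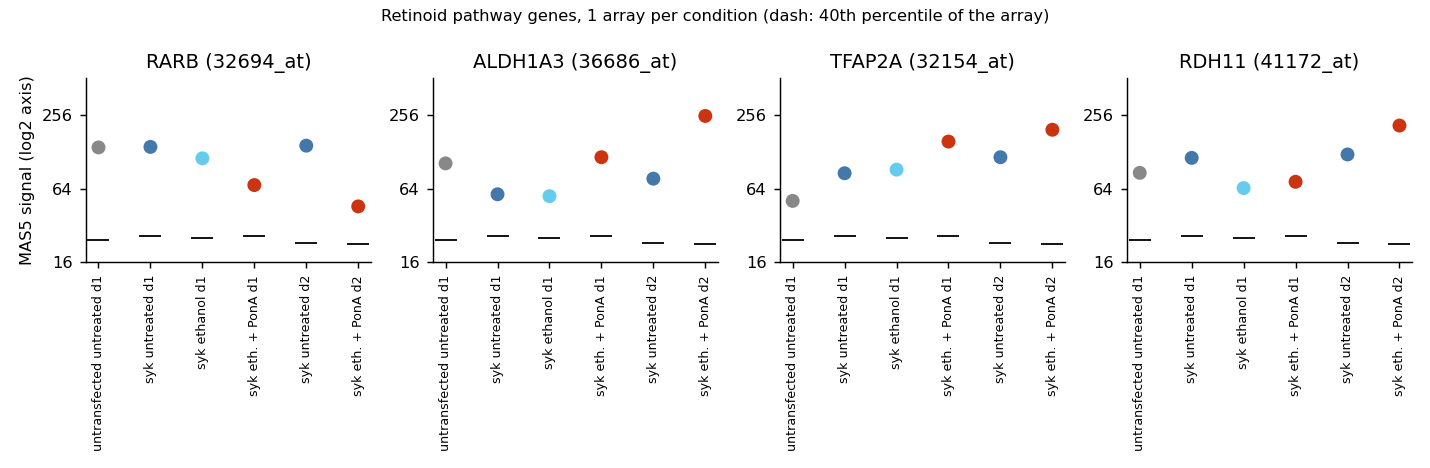
MAS5 signal (log2 axis) of RARB, ALDH1A3, TFAP2A and RDH11 in each of the 6 conditions, 1 point per array, dashes at the 40th percentile of the array. On the PonA arrays (red) RARB sits at 68.6 and 45.9, its lowest, and ALDH1A3 at 116 and 252, its highest.

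Of the 6 receptor genes, RARB fell, none rose and 5 did not pass, where 2.37% of all probe sets tested passed as lower. RARA had an effect of 0.37 ± 0.30 (limma adjusted p = 0.581) and RARG of 0.35 ± 0.18 (limma adjusted p = 0.359) on its brightest probe set. The other 2 RARG probe sets had effects of 0.68 and 0.30. RXRA, the usual partner of these receptors and of the ecdysone receptor in inducible systems, did not pass on its brighter probe set, with an effect of -0.11 ± 0.20 (limma adjusted p = 0.826). Between untreated cells at day 1 that probe set was 6.87-fold higher with transfection, and it gave 640 to 867 on the 5 transfected arrays. The fold is a difference of 2 single arrays with no replicate check, in which 3.08% of 8045 probe sets were at least 2-fold higher. The dimmer RXRA probe set, 32800_at, went the other way, at 375 in untransfected and 239 to 266 in transfected cells, with a PonA effect of -0.02. None of 6 tested coregulators passed, near the 5.07% of all probe sets that did, with effects from -0.36 for CREBBP to 0.21 for NCOA1.

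Other genes known to be raised by retinoic acid did not pass, 0 of 7 tested in the limma fit. As 5.07% of all probe sets tested passed in either direction, 0 of 7 is near that share. TFAP2A, a transcription factor, had the largest effect at 0.78 ± 0.16 (adjusted p = 0.0502), with PonA arrays at 156 and 195 against 85.7 to 116 in transfected cells without PonA. UCP2, a mitochondrial carrier, had an effect of -0.59 ± 0.24 (limma adjusted p = 0.246). PLAAT4, another gene named for its response to retinoids, gave 121 to 251 and had an effect of -0.47 ± 0.30 (limma adjusted p = 0.458). Its values were given because of its name and after they were seen. HOXB1, HOXB2, ICAM1 and THBD were among the 12 of 19 genes of this list that were not tested for low signal.

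The families of the retinoid genes did not pass in the limma fit, in which 5.07% of all probe sets tested did. Of the 5 other transglutaminases, TGM3 and TGM5 were tested, with effects of -0.21 ± 0.20 and 0.17 ± 0.17. TGM3 exceeded the floor only on the transfected arrays without PonA, so its effect is a bound. It was -1.19 with the floor at the 20th percentile and -0.64 with log2(signal + 16). TGM5 stood at 58.3 in untransfected and 96.8 to 134 in transfected cells, a difference in the same direction as that of TGM2 and smaller in size. F13A1, the transglutaminase of blood clotting, gave 68.8 in untransfected cells and lay under the floor on all 5 transfected arrays. It was named after its values were seen. FABP7, the brain member of the protein family of CRABP2, was bright at 1505 to 2391 and had an effect of -0.27 ± 0.20 (adjusted p = 0.534), and FABP6 of -0.16 ± 0.17. FABP6 exceeded the floor only on the untreated and ethanol arrays of transfected cells at day 1, so its effect rests on floored signals. Of the transport genes RLBP1 alone was tested, at -0.11 ± 0.18, while RBP4 and TTR were under the floor on all 6 arrays. Of the receptors of chemerin CCRL2 was tested, at -0.07 ± 0.17, and CMKLR1 was under the floor on all 6.

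The genes with the most like profiles were found over all 6 arrays, as the smallest root mean square difference of log2 profiles centred on their means, among 7179 probe sets with 1 symbol. For DHRS3 they were POLA2 at 0.05, RPA3 at 0.08 and TMEM187 at 0.13, against a span of 1.57 of DHRS3 itself. POLA2 gave 131 in untransfected cells. In transfected cells it gave 116 untreated, 114 with ethanol and 56.2 with PonA at day 1, while the day 2 arrays read 155 and, with PonA, 51.7. For the first CRABP2 probe set they were WDR77 at 0.15, FAM114A1 at 0.16 and FAM50A at 0.18, and all 3 had, as it did, a lower ethanol than untreated array at day 1. For TGM2 they were ADD3 at 0.42, MIA at 0.44 and ECM1 at 0.45, none of which came close to it. MIA stood at 39.3 in untransfected and 192 to 335 in transfected cells, but 290.3 with PonA at day 2 where TGM2 was at its lowest among transfected cells. Among the retinoid genes, DHRS3 and the first CRABP2 probe set lay 0.27 apart by this measure, and TGM2 lay 1.09 from DHRS3 and 0.96 from that CRABP2 probe set.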

How the data were processed

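Total RNA of U373 cells was hybridised to 6 Affymetrix U95 Av2 arrays after Tripure isolation, RNeasy clean-up and biotin labelling, per the labels' protocols. The deposited intensity values are linear MAS5 signals, per the submitters' processing notes, and the trimmed mean of every array, leaving out 2% at each end, was near 150.07, so the authors had scaled them; no MAS5 version is given in the sources used here. Groups came from the labels, 1 array each, and nothing says that cultures were independent, so p-values measure only the spread between these arrays.

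Of 12558 non-control probe sets, 10943 had 1 symbol in the platform annotation, 545 several and 1070 none; symbols were updated through Entrez identifiers to a RefSeq table (10934 matched). Each pathway gene was read from its brightest probe set on average. Signals were floored at the 40th percentile of the array and put on the log2 scale. limma 3.58.1 in R 4.3.3 fitted PonA and day over 5 arrays (2 residual degrees of freedom, threshold 0.05), and a second fit added PonA by day. The limma script was tested on simulated data. Pairs of arrays were given as differences with no test. Named were all probe sets of the 6 genes, pathway genes that passed, the 2 largest effects of each list that did not, and the 3 most like genes of each retinoid gene spanning at least 1 log2 unit. Pathway genes named beyond this rule were ALDH1A1, ALDH1A2, RXRA, PLAAT4, F13A1, HOXB1, HOXB2, ICAM1, THBD, RBP4, TTR and CMKLR1. The retinoid genes and lists were chosen with earlier results of these data known. Alternatives changed the floor, the log scale, the normalization, the filter, the probe set rule and the arrays.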

Additional observations from a re-analysis of the deposited data

How the results depend on the processing

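The direction of the PonA effect on DHRS3, CRABP2 and TGM2 was the same under all 9 alternatives of each of their 4 tested probe sets. Part of this is built in. For probe sets above the floor on all arrays, the lower floor and the absent filter leave the effect unchanged. Leaving out either array of day 2 gives 1 and the same effect, from day 1 alone. With the floor at the 20th percentile 107 probe sets passed, 0 of them of the retinoid genes and 0 of the pathway genes, and with no filter on low signals 29, 0 and 0. More probe sets are tested under these settings, and the DHRS3 effect was -1.23 in both (limma adjusted p = 0.106 and 0.0866). Counts did not leave 1.5 times the reported ones with log2(signal + 16), with quantile normalization or with agreement of probe sets. Leaving out 1 array at a time gave 111 to 725 probe sets, 0 to 2 of the retinoid genes and 0 to 3 pathway genes, with effects of -1.57 to -0.98 for DHRS3, -1.59 to -0.61 and -0.46 to -0.13 for CRABP2 and -1.41 to -0.17 for TGM2. Directions turned for RLBP1 (-0.29 to 0.14), CREBBP (-0.64 to 0.014), RDH11 (-0.24 to 0.79) and ADH5 (-0.49 to 0.10), over the arrays left out in turn, and the causes were not tested. The PonA-by-day difference of the second CRABP2 probe set was 0.26 against the untreated array of day 1 alone, a value with no test. TFAP2A passed without the ethanol array and with log2(signal + 16). Between untreated transfected and untransfected cells 863 probe sets were at least 2-fold apart with the lower floor, against 460 as reported, and TGM2 stood at 1.98 with log2(signal + 16), which by construction draws low signals together. The labels number no replicates, and the term for day is what pairs PonA with untreated arrays. Low signal limits RARRES1, RARRES2 and the dimmer TGM2 probe set to values under the floor.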
